A study of Mus musculus with 8 samples.

Results

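Ceruloplasmin, encoded by *Cp*, was examined together with 9 other genes of iron and copper handling in Day 4 neural progenitors that lacked *Sox3*. *Cp* was chosen because its signal differed between the genotypes on these arrays, so that difference is described here with no test. *Heph*, *Slc40a1*, *Slc11a2*, *Tfrc*, *Trf*, *Fth1*, *Hmox1*, *Atp7a* and *Slc31a1* were listed beside it by function. All 10 genes were found by symbol, each on 1 row of the value table, among 23410 rows that carry a gene name and 35556 rows in all. Another 84 genes of iron and copper handling, listed by function, are described as counts, and 78 of them were measured.

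The cells were mouse R1 embryonic stem (ES) cells taken to neural progenitors as monolayers in N2B27, a serum-free medium, for 4 days. In the *Sox3* null line a GFP reporter replaces the only exon of *Sox3*. The control line carries a conditional *Sox3* allele, is given as *Sox3* positive in the labels and is called wild type in the methods. Each genotype had 4 cultures on 1 array each, 2 in 1 differentiation series (replicates 3 and 4, batch 2) and 2 in another (replicates 1 and 2, batch 1). The study describes the cultures as biological replicates. Each genotype is a separate ES cell line, so loss of *Sox3* and other features of either line cannot be told apart. ES cells were kept on gelatine according to the labels and on irradiated mouse embryonic fibroblasts according to the methods.

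Iron enters most cells as transferrin bound to the transferrin receptor, or through the ferrous iron transporter *Slc11a2*, and the surplus is stored in ferritin or leaves through ferroportin, the product of *Slc40a1*. Iron that leaves must be oxidised before transferrin can bind it, and ceruloplasmin and hephaestin are copper-dependent ferroxidases that do so. Copper enters through *Slc31a1* and is pumped by *Atp7a* into the secretory route, where it is loaded into such enzymes. Ceruloplasmin is best known as a plasma protein made by the liver, and in the brain a membrane-anchored form is known from astrocytes.

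Values are log2 signals, on which a difference of 1 is a doubling. Array medians lay between 7.63 and 7.70, and the median signal of the named rows was 7.67. *Sox3* itself had 8.39, 8.56, 8.67 and 8.37 in *Sox3* null replicates 1 to 4, against 9.92, 9.84, 9.73 and 9.76 in control replicates 1 to 4, so each array followed its label. The lowest correlation between arrays of a genotype and batch was 0.998. Signals of different genes come from different probes and were not set against each other. The share of all named rows that separate by genotype or batch without overlap was not counted. In bulk cultures, a change in the number of cells that express a gene and a change in RNA per cell cannot be told apart.

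The start of *Cp* on the plus strand of chromosome 3 is shown first, since *Sox3* encodes an HMG-box factor and *Cp* is the gene whose signal differed. In these letters from RefSeq (GRCm38.p6), capitals mark the SOX-type hexamers ACAATG and ACAAAG, which were searched on both strands from 250 bases before to 50 after each annotated start. The search was chosen after the values of *Cp* were known.
Cp upstream, chr3:19956804-19956932: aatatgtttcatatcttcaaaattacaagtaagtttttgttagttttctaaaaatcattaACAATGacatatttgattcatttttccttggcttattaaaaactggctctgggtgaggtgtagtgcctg
Cp second site, chr3:19956935-19956964: attgctagaagaACAAAGggagcatttaga
ACAATG stood at -190 and ACAAAG at -107 from the annotated start of the first *Cp* window. ACAAAG occurred once more on the minus strand at position 5, counting the start as 1. The upstream stretch ends at the RefSeq start of the whole gene, which lies inside this window but before its annotated start. By that gene start, the ACAAAG at -107 is inside *Cp*. At least 1 of the hexamers was present in 28.6% of all 32851 start windows, ACAAAG in 18.7% and ACAATG in 12.6%. Of the 10 genes, *Cp*, *Tfrc*, *Fth1*, *Atp7a* and *Slc31a1* had windows, 8 in all, since some genes have several starts and neighbouring windows can overlap. *Fth1* and *Atp7a* also held an ACAAAG. Counted as windows, like the shares above, 4 of the 8 had a match. Overlapping *Cp* windows share the ACAAAG on the minus strand, so that site is counted in each. A match describes the letters only.

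*Cp* had the higher signal in *Sox3* null progenitors on every array. Its log2 signal was 10.02, 9.98, 9.63 and 9.53 in *Sox3* null replicates 1 to 4, against 9.09, 9.22, 8.30 and 8.40 in control replicates 1 to 4. The lowest *Sox3* null array thus lay above the highest control array. The means were 9.79 ± 0.248 in *Sox3* null and 8.75 ± 0.470 in control progenitors (SD, n = 4 each), a difference of 1.04 on the log2 scale or 2.05-fold. The study marks *Cp* as not borne out in its independent samples. At a later day of differentiation it lists *Cp* among genes with a reduced or insignificant fold change. The array signals above are those by which the gene was chosen. *Cp* also had a clear difference between the differentiation series, which played no part in that choice. In batch 2 it was lower by 1.53-fold (log2 difference -0.61, 95% interval -0.79 to -0.44, limma adjusted p = 5.10e-04), and this held within each genotype, with -0.42 in *Sox3* null and -0.81 in control progenitors. The control signal was lower in batch 2 by the larger amount, and the genotype difference was 1.23 in batch 2 and 0.85 in batch 1. The genotype by batch term of *Cp* was 0.38 (95% interval 0.13 to 0.64, unadjusted p = 0.00789 from limma), and it did not pass over all rows (adjusted p = 0.9997). No row of the table passed for this term in limma (0% called, smallest adjusted p = 0.862) or in a plain linear model with each row's own variance (smallest adjusted p = 0.399). At an unadjusted p under 0.05 there were 715 such rows, and *Cp* was the only 1 of the 10 genes among them.

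**Figure D1:**
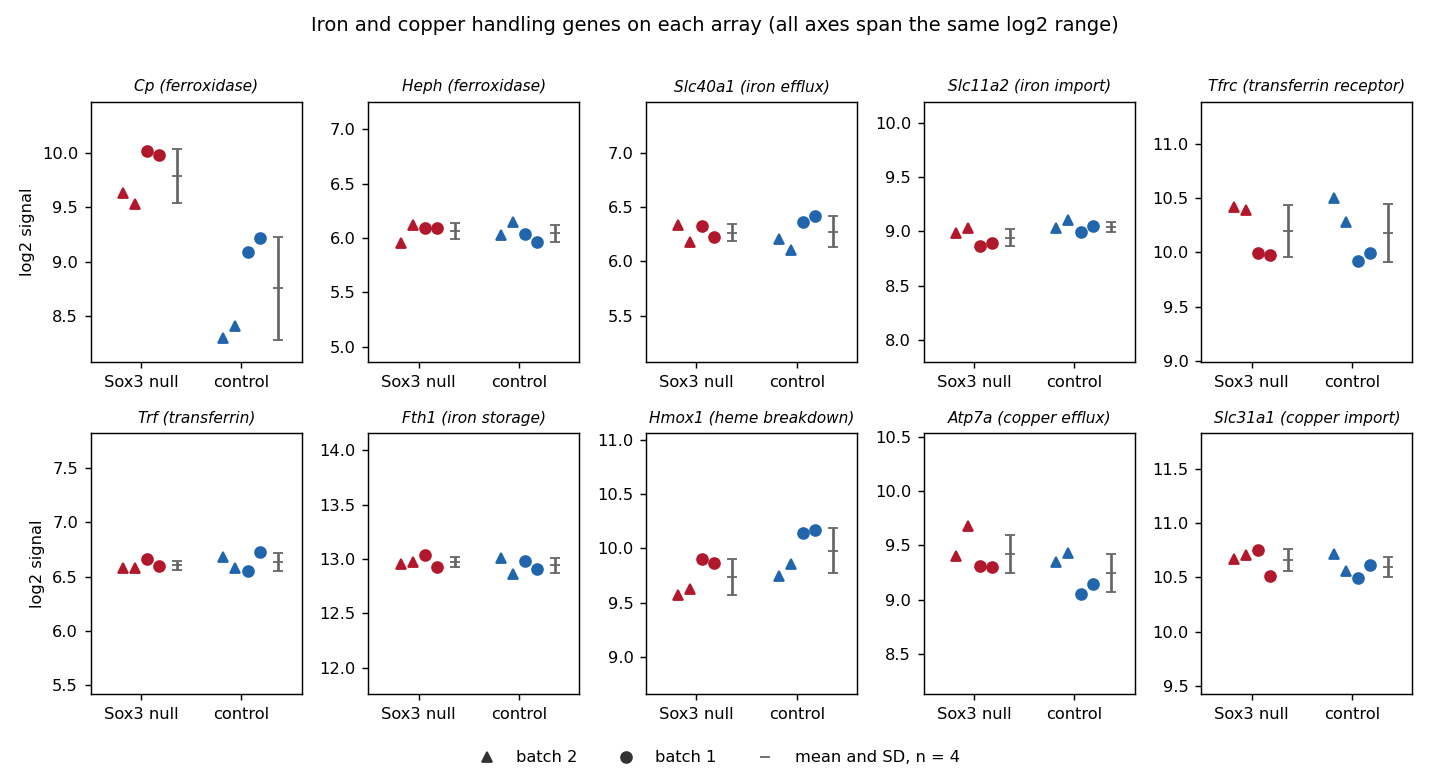
Log2 signal of the 10 genes (vertical axes, all of the same span) on 4 *Sox3* null and 4 control arrays, triangles for batch 2 and circles for batch 1, with bars for the mean and SD. *Cp* separated the genotypes on all arrays, and *Hmox1* separated them within each batch but not across batches. *Heph*, *Slc40a1*, *Slc11a2* and *Atp7a* separated them in batch 1 alone, and *Trf* in batch 2 alone. *Tfrc*, *Atp7a* and *Hmox1* separated the batches on all arrays, and *Cp* separated them within each genotype.

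The second ferroxidase and the iron exporter showed no such separation. *Heph*, which encodes hephaestin, had 6.09, 6.09, 5.96 and 6.12 in *Sox3* null replicates 1 to 4, against 6.04, 5.96, 6.03 and 6.15 in control replicates 1 to 4. The groups overlapped, with a log2 difference of 0.02 (95% interval -0.11 to 0.15, limma adjusted p = 0.938). *Slc40a1* had 6.32, 6.23, 6.34 and 6.18 in *Sox3* null replicates 1 to 4, against 6.37, 6.42, 6.21 and 6.10 in control replicates 1 to 4. These overlapped too, with a difference of -0.01 (95% interval -0.15 to 0.13, adjusted p = 0.982). Both genes lay below the median signal of the named rows, as did *Trf*. Of the 6 measured genes of ferroxidase activity and iron efflux, only *Cp* was above it. *Hamp*, which encodes the hormone hepcidin that removes ferroportin from the cell surface, had the smallest p of that list outside *Cp*, with a difference of -0.23 (adjusted p = 0.222).

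Genes of iron uptake and storage did not pass between the genotypes. *Tfrc*, the transferrin receptor, had a log2 difference of 0.02 between *Sox3* null and control progenitors (95% interval -0.11 to 0.15, limma adjusted p = 0.936). *Slc11a2* had 8.86, 8.89, 8.98 and 9.03 in *Sox3* null replicates 1 to 4, against 8.99, 9.05, 9.03 and 9.10 in control replicates 1 to 4, and the groups overlapped. Its difference was -0.10 (95% interval -0.21 to 0.01, adjusted p = 0.418). *Trf*, which encodes transferrin, lay between 6.58 and 6.67 on *Sox3* null arrays and between 6.55 and 6.73 on control arrays, with a difference of -0.03 (adjusted p = 0.880). *Fth1*, the ferritin heavy chain, was bright on every array, between 12.93 and 13.03 in *Sox3* null and between 12.86 and 13.01 in control progenitors. Its difference was 0.03 (95% interval -0.08 to 0.15, adjusted p = 0.861). The intervals of *Tfrc*, *Slc11a2* and *Fth1* all lie within 0.21 of 0. *Fth1* has processed copies elsewhere in the genome, so its probes may also take up their transcripts.

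*Hmox1* was the only 1 of the other 9 genes that passed between the genotypes, and it was lower in *Sox3* null progenitors. It encodes the inducible heme oxygenase, which opens the heme ring and frees its iron. Its log2 signal was 9.90, 9.86, 9.57 and 9.63 in *Sox3* null replicates 1 to 4, against 10.14, 10.17, 9.75 and 9.85 in control replicates 1 to 4. Both *Sox3* null arrays lay below both control arrays within each batch, but across batches the genotypes overlapped. The difference was -0.24 (standard error 0.05, 95% interval -0.35 to -0.13, limma adjusted p = 0.0417), which is 1.18-fold lower, with -0.20 in batch 2 and -0.28 in batch 1. Over all named rows, 1.55% passed for genotype and 0.393% passed as lower. The call is narrow: without 1 array it was lost in 7 of 8 fits (adjusted p 0.0499 to 0.136) and held only without control replicate 3, and over 22 alternatives it held in 8, with adjusted p between 0.0203 and 0.736. In the plain linear model the adjusted p was 0.121, and the difference stayed below 0 under every alternative.

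The copper transporters did not pass either. *Atp7a*, the copper pump, had 9.31, 9.30, 9.40 and 9.67 in *Sox3* null replicates 1 to 4, against 9.06, 9.14, 9.35 and 9.43 in control replicates 1 to 4. Within batch 1 the *Sox3* null arrays were the higher ones, and within batch 2 the genotypes overlapped. The difference was 0.18 (95% interval 0.04 to 0.32), with an unadjusted p of 0.019 and a limma adjusted p of 0.259. *Slc31a1*, the copper importer, had 10.75, 10.52, 10.67 and 10.70 in *Sox3* null replicates 1 to 4, against 10.50, 10.61, 10.72 and 10.56 in control replicates 1 to 4. The groups overlapped, with a difference of 0.06 (95% interval -0.08 to 0.21, adjusted p = 0.759).

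**Figure D2:**
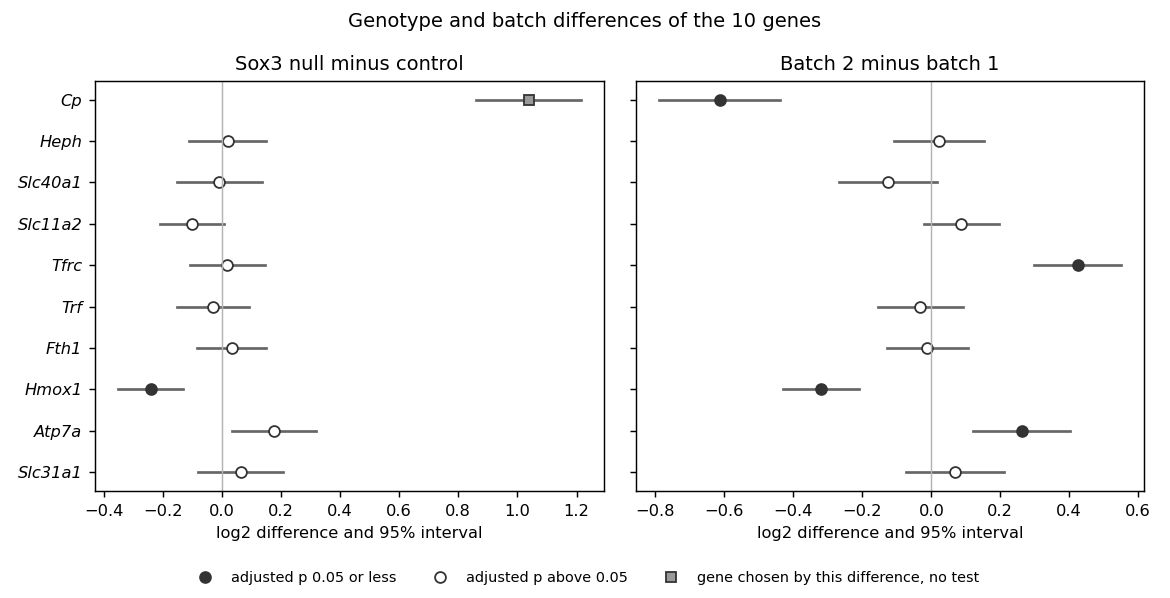
Log2 differences with 95% intervals (horizontal axes) of the 10 genes, *Sox3* null minus control on the left and batch 2 minus batch 1 on the right, from 4 arrays a genotype. Filled circles had an adjusted p of at most 0.05. The square of *Cp*, at 1.04, marks the difference by which it was chosen.

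The wider set of iron and copper genes was counted in the same way. Of 94 listed genes 88 were measured, and of the 87 other than *Cp* none was higher, 1 (*Hmox1*) was lower and 86 did not pass, with 13 at an unadjusted p under 0.05. Their median log2 difference was -0.01, against 0.00 over all named rows, of which 3068 had an unadjusted p under 0.05 and 1.55% passed, 1.15% as higher and 0.393% as lower. The list of iron import held the largest of these differences, -0.38 for *Slc39a8*, a zinc transporter that also carries iron (adjusted p = 0.104). Among 11 copper transport genes, *Slc31a2*, a relative of the copper importer, had the smallest p, with 0.24 (adjusted p = 0.150). In the other lists the genes with the smallest p were *Ftl1*, the ferritin light chain (-0.06, adjusted p = 0.638), *Fbxl5*, an iron-sensing ubiquitin ligase subunit (0.17, 0.263), *Ppox* of heme synthesis (0.16, 0.238) and *Isca2* of iron-sulfur cluster assembly (0.13, 0.331). The metallothionein *Mt1* had -0.15 (adjusted p = 0.320) and the copper amine oxidase *Aoc3* had 0.17 (adjusted p = 0.207). All 8 of these genes missed the threshold in limma.

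Lists that share *Hmox1* or a form of control with these genes were counted in the same way. Of 12 measured target genes of NRF2, the factor of the oxidative stress response that is known to induce *Hmox1*, 1 (*Hmox1*) was lower and 11 did not pass, with 10 of the 12 below 0 and a median of -0.06. None of 12 hypoxia-inducible genes passed, with 9 of the 12 below 0 and a median of -0.07. Among them *Ldha*, lactate dehydrogenase, had the smallest p (-0.18, limma adjusted p = 0.191). Over all named rows, 11716 of 23410 had differences below 0. None of 5 genes with an iron-responsive element at the 5′ end of the mRNA passed, nor *Tfrc* and *Slc11a2*, which carry such elements at the 3′ end. Of the first kind *Epas1*, which encodes the hypoxia factor HIF-2α, had the smallest p (0.13, adjusted p = 0.414).

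**Figure D3:**
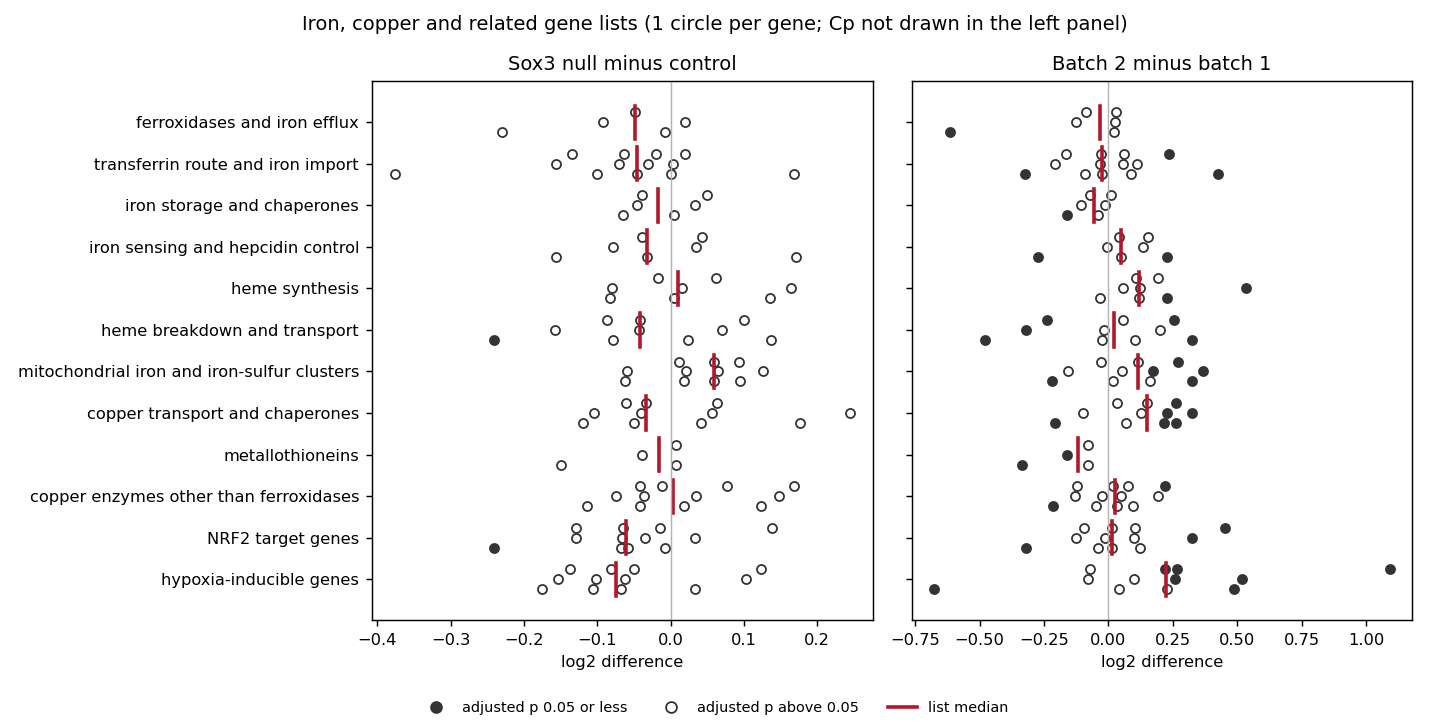
Log2 difference of each measured gene of 10 iron and copper lists and 2 related lists (horizontal axes), *Sox3* null minus control on the left and batch 2 minus batch 1 on the right, with red bars for list medians. The only filled circle on the left, repeated in 2 lists, is *Hmox1* at -0.24, while many circles are filled on the right.

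The differentiation series separated more of these genes than genotype did. Of the 10 genes, *Tfrc* and *Atp7a* were higher in batch 2, *Cp* and *Hmox1* were lower and 6 did not pass. Over all named rows 20.2% passed for batch, 10.9% higher and 9.35% lower, so calls for batch were common throughout the table. *Tfrc* had 10.42 and 10.39 in *Sox3* null and 10.50 and 10.28 in control replicates 3 and 4 of batch 2, against 9.999 and 9.98 in *Sox3* null and 9.92 and 9.998 in control replicates 1 and 2 of batch 1. The batches did not overlap in either genotype, and the difference was 0.42 (95% interval 0.30 to 0.55, limma adjusted p = 6.26e-04), or 1.34-fold. *Atp7a* was higher in batch 2 by 0.26 on the log2 scale (95% interval 0.12 to 0.40, adjusted p = 0.0149), also without overlap in either genotype. That call was lost in the plain linear model (adjusted p = 0.0737) and without control replicate 1 (0.0517). *Hmox1* was lower in batch 2 by 1.25-fold (log2 difference -0.32, 95% interval -0.43 to -0.21, adjusted p = 0.00141), by -0.28 in *Sox3* null and -0.36 in control progenitors. *Heph*, *Slc40a1*, *Slc11a2*, *Trf*, *Fth1* and *Slc31a1* had differences between -0.13 and 0.09, with adjusted p from 0.220 to 0.912.

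Short stretches at the starts of *Tfrc* and *Atp7a*, the pair that was higher in batch 2, are shown with the core of the hypoxia response element, ACGTG, in capitals. For *Atp7a* the capitals run over overlapping copies on both strands. The sequences are from RefSeq (GRCm38.p6), on the plus strand, and were chosen after these values were known.
Tfrc site, chr16:32608884-32608913: cggtaggtgtACGTGcggaaggaagtgacg
Atp7a site, chrX:106027127-106027156: tgctccctttCACGTGACGTGgaccatttc
ACGTG was present in 19.6% of all start windows, and in 4 of the 8 windows of the 5 genes, those of *Tfrc*, *Atp7a* and *Slc31a1*. Overlapping *Tfrc* windows hold the same ACGTG, which is thus counted once per window. *Slc31a1* did not pass for batch (log2 difference 0.07, adjusted p = 0.541).

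Over the 88 measured iron and copper genes, 17 were higher in batch 2, 12 were lower and 59 did not pass, with a median of 0.03. Of all named rows 20.2% passed for batch, 10.9% as higher and 9.35% as lower. The listed genes were brighter than those rows, with 54 of the 88 above the median signal. The number of listed genes that passed, 29 in all, was 17 without *Sox3* null replicate 1, 19 without *Sox3* null replicate 3 or control replicate 1, and 15 in the plain linear model. In the copper transport list 5 were higher and 1 was lower of 11, among them *Slc31a2* (0.33, limma adjusted p = 0.00846), *Commd1*, a regulator of copper efflux (0.22, 0.0148), and *Atp7a*. In heme synthesis 2 were higher of 8, led by *Alas1*, which catalyses its first step (0.53, adjusted p = 8.99e-05), with *Urod* at 0.23. In iron-sulfur cluster assembly and mitochondrial iron 4 were higher and 1 was lower of 11, with *Isca2* at 0.37, *Lyrm4* at 0.32 and *Hscb* at 0.27. All 11 of that list were above the median signal. Heme breakdown and transport had 2 higher and 3 lower of 10, with the heme-linked transporter *Flvcr2* at -0.48 beside *Hmox1* and the constitutive oxygenase *Hmox2* at 0.25. Both metallothioneins that passed, *Mt1* (-0.34) and *Mt2* (-0.16), were lower in batch 2. In the transferrin and import list *Tfrc* and the metalloreductase *Steap1* (0.23) were higher and the metalloreductase *Steap3* (-0.33) was lower. In iron sensing, *Bmp6*, a ligand that induces hepcidin, was lower (-0.27) and its co-receptor *Hjv* was higher (0.23), and in storage the iron chaperone *Pcbp1* was lower (-0.16). Of the copper enzymes, the lysyl oxidase relatives *Loxl3* (0.22) and *Loxl1* (-0.21) passed in opposite directions. Without 1 array, the calls of *Steap1*, *Pcbp1*, *Hjv*, *Urod*, *Mt2*, *Loxl3* and *Loxl1* were lost in 3 to 8 of 8 fits (adjusted p up to 0.129). Those of *Slc31a2*, *Commd1*, *Alas1*, *Isca2*, *Lyrm4*, *Hscb*, *Flvcr2*, *Hmox2*, *Mt1*, *Steap3* and *Bmp6* were kept in all 8.

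Of the 12 hypoxia-inducible genes 6 were higher in batch 2 and 1 was lower, with a median of 0.22. Among all named rows 10.9% passed as higher and 9.35% as lower. *Bnip3*, a mitophagy receptor, was higher by 1.09 (limma adjusted p = 3.42e-06) and *Ldha* by 0.52, while the differentiation-linked gene *Ndrg1* was lower by a log2 difference of -0.67. Of the NRF2 targets, the quinone reductase *Nqo1* (0.45) and malic enzyme *Me1* (0.32) were higher and *Hmox1* was lower, and the other 9 did not pass. *Me1* missed the threshold without *Sox3* null replicate 2 (adjusted p = 0.0551). *Epas1* was lower (-0.46), the only 1 of 5 genes with a 5′ iron-responsive element that passed for batch. Any part of these genes in the batch differences of *Tfrc*, *Atp7a*, *Cp* and *Hmox1* was not tested.

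The label of neural progenitors was set against marker genes, and other cells known to express *Cp* were looked for in the same way. All 6 progenitor markers were above the median signal and above 0 between the genotypes. The intermediate filament gene *Nes* was higher in *Sox3* null progenitors (0.49, limma adjusted p = 0.00947), and the brightest, *Fabp7*, had 0.19 (adjusted p = 0.128). The mean signal of the 6 lay between 11.67 and 11.74 on *Sox3* null arrays and between 11.41 and 11.55 on control arrays, without overlap. Apart from *Nes*, the other 5 did not pass. The study, by qRT-PCR on the array samples, reports *Sox1*, *Sox2* and *Pax6* as not significantly changed. For visceral endoderm and hepatocytes, 9 of 10 markers were below the median signal, *Alb*, *Afp* and *Ttr* among them. All 10 had differences below 0, none of which passed. All 6 macrophage and all 4 measured erythroid markers were also below 0, as were 4 of 5 oligodendrocyte markers. Over all named rows, 11716 of 23410 were below 0. Most markers of these lists lay below the median signal, and rows of such low signal were not counted apart. The endoderm and hepatocyte markers had a mean signal between 6.26 and 6.43 on *Sox3* null arrays and between 6.43 and 6.52 on control arrays. These ranges overlapped narrowly, and the brightest of these markers, *Foxa2*, had -0.05. The part of such cells in the values of *Cp* was not tested. Of 8 astroglial markers none passed and 2 were above 0. *Gfap*, *Aqp4* and *S100b* were below the median signal and the brightest, *Aldoc*, had -0.27 (adjusted p = 0.127). Of 7 choroid plexus markers *Folr1*, a folate receptor gene and the brightest of the list, was higher (0.41, adjusted p = 0.027). Of the list 4 were below 0, with a median of -0.06, and *Ttr*, *Kcne2*, *Clic6*, *Aqp1*, *Foxj1* and *Kl* were below the median signal and did not pass.

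Markers of feeder and blood-borne cells did not pass between the genotypes. Of 7 fibroblast markers 5 were above 0 and 2 below, with a median of 0.04. Of the 7, 5 were below the median signal, with means between 6.42 and 6.70 on *Sox3* null arrays and between 6.49 and 6.71 on control arrays, and the brightest, *Col1a1*, had -0.17 (limma adjusted p = 0.231). Macrophage markers, which bear on iron recycling, gave 6.10 to 6.30 in *Sox3* null and 6.13 to 6.30 in control progenitors, with *Cd68* the only 1 of 6 above the median signal (-0.03, adjusted p = 0.936). All 4 measured erythroid markers were below it, *Epor* being the brightest (-0.05, 0.776). Of 5 oligodendrocyte markers, a lineage that expresses *Trf*, 1 (*Mbp*, -0.15, adjusted p = 0.247) was above it. Of 6 pluripotency markers *Nanog* was lower (-0.37, adjusted p = 0.0464), and the brightest, *Dppa5a*, had 0.17 (0.479). Without 1 array the calls of *Nanog* and *Folr1* were each lost in 7 of 8 fits (adjusted p up to 0.152 and 0.0900) and that of *Nes* in 0, while in the plain linear model *Nes* had 0.179. The part of *Nes*, *Folr1* or *Nanog* expressing cells in the values of *Cp* and *Hmox1* was not tested.

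The pattern of *Cp* over the 8 arrays was next set against all other rows with a single gene name, as a description. The highest Pearson correlations were those of *Raver2*, an RNA-binding protein gene (0.989), a row of *Hmcn1*, which has 77 rows (0.984), the dorsal neural tube homeobox gene *Msx3* (0.981), *Cdc42ep1*, which encodes a Cdc42 effector (0.981), and the Notch ligand *Dll1* (0.978). All 5 had higher signals in *Sox3* null progenitors and lower signals in batch 2, like *Cp*. Rows picked for so high a correlation with *Cp* must share both features, so this is no separate result. *Msx3* had 9.11, 9.11, 8.85 and 8.73 in *Sox3* null replicates 1 to 4, against 8.70, 8.75, 8.28 and 8.26 in control replicates 1 to 4. The points are the same 8 arrays, each with its genotype and batch. The correlations of the other 9 iron and copper genes with *Cp* ran from -0.81 (*Slc11a2*) to 0.38 (*Slc40a1*).

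The genes around *Cp* on chromosome 3 had smaller differences between the genotypes. Among the 10 measured genes closest to it, 5 a side, none passed, 2 had an unadjusted p under 0.05, and the log2 differences ran from -0.12 (*Trim55*) to 0.23 (*Gyg*), with a median of 0.03. *Gyg*, which encodes the glycogen primer glycogenin, had 10.45, 10.34, 10.73 and 10.39 in *Sox3* null replicates 1 to 4, against 10.32, 10.22, 10.30 and 10.16 in control replicates 1 to 4. All its *Sox3* null arrays lay above all its control arrays, as for *Cp*, but its limma adjusted p was 0.242. How many of all named rows separate in this way was not counted. *Hps3*, the closest measured gene downstream of *Cp*, had 0.15 in the same direction (adjusted p = 0.381), with overlap, and *4632415L05Rik*, the closest upstream, had 0.05 (adjusted p = 0.738). *Dnajc5b*, *Trim55*, *Crh*, *Cpa3* and *Cpb1* were below the median signal. For batch, 1 neighbour passed, *Pde7a* (0.21, adjusted p = 0.018), in the direction opposite to *Cp*.

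**Figure D4:**
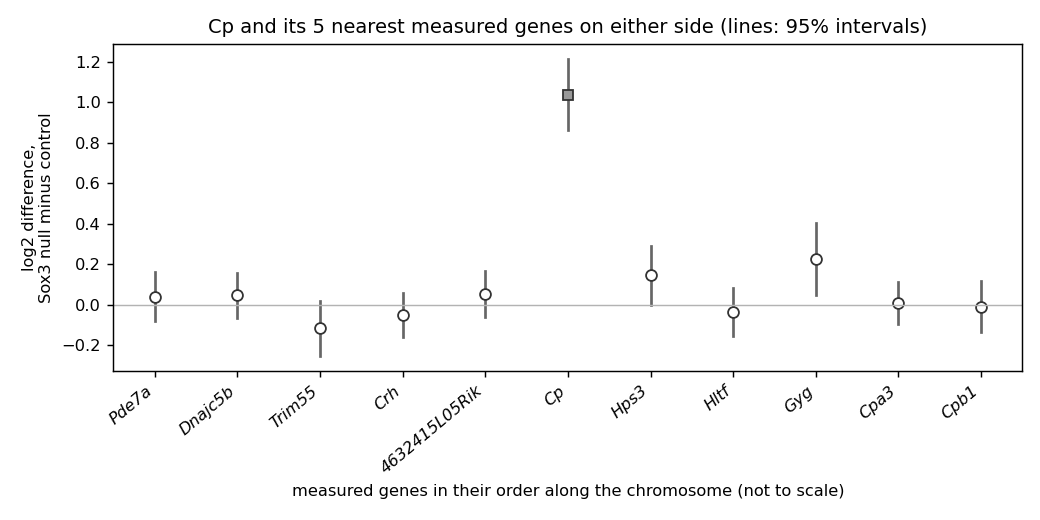
Log2 difference, *Sox3* null minus control (vertical axis), of *Cp* (square, chosen by this difference) and its 5 closest measured genes a side in chromosome order, not to scale, with 95% intervals. The 10 neighbours lie between -0.12 and 0.23 and *Cp* at 1.04.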

How the data were processed

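RNA of 8 Day 4 cultures was hybridised to Affymetrix Mouse Gene 1.0 ST arrays. The deposited values are log2 signals, 1 per transcript cluster, that the authors had normalized and summarised by a procedure not given in the sources used here, like the build. Partek is named in the submitters' processing notes. The number of arrays limits the precision. Gene names came from the platform annotation: 21789 rows had 1 symbol, 1621 several and 12146 none, and 21698 symbols matched the RefSeq gene table. No column was left unmapped.

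The 23410 named rows were fitted with limma 3.58.1 (R 4.3.3) on terms for genotype and batch, and in a second fit their interaction, with Benjamini-Hochberg adjustment over all rows and a threshold of 0.05. The ANOVA of the methods, with batch as factor, was run as the plain linear model. Steps were tested on simulated data. Promoter windows were RefSeq (GRCm38.p6), and *Hmox1*, *Heph*, *Slc40a1*, *Slc11a2* and *Trf* were not searched.

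The 10 genes and all lists were chosen with earlier results of these data known. Named were the 10 genes, per list each gene that passed for genotype (otherwise the smallest p) and up to 3 for batch, markers that passed and the brightest of each list, the 5 rows most correlated with *Cp* and its 10 neighbours. Other genes were named after their values were seen. Same-numbered arrays of the genotypes share a differentiation series per the labels, and their deviations from genotype means correlated at 0.39 to 0.68. Within a batch, after batch means were removed, they correlated at 0.30 in batch 2 and -0.32 in batch 1, with only 1 such contrast a batch, so pairing beyond batch was not settled. Other measurements of the study were not analysed here.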

Additional observations from a re-analysis of the deposited data

How the results depend on the processing

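With 4 arrays a genotype, the counts between genotypes were fragile. With the replicate block in place of batch, in the plain linear model, with all rows tested, without the batch term, with a random batch block, and in batch 2 or batch 1 alone, 0 of the 9 genes and 0 of the 87 listed genes passed, in place of 1 each, and without 1 array 0 to 1 passed. Without control replicate 4, the 1 listed gene that passed was not *Hmox1*, which had a limma adjusted p of 0.107. *Hmox1* had adjusted p = 0.0659 with the replicate block, 0.135 with all rows, 0.736 with no batch term, 0.327 with the random block, 0.684 in batch 2 and 0.247 in batch 1 alone. The cause was not tested. The listed genes with a batch effect numbered 19 with all rows and 15 in the plain linear model, in place of 29, and 17 to 27 without 1 array. Of the 10 genes 3 to 4 then passed for batch. The difference of *Cp* was 1.23 in batch 2, 0.85 in batch 1 and 0.98 to 1.10 without 1 array. Signs turned only for differences that lay near 0 in the main fit. Quantile normalization gave *Slc40a1* 0.016, *Tfrc* -0.0078 and the batch difference of *Trf* 0.037. Batch 2 alone gave *Heph* -0.052 and *Slc40a1* 0.10, and batch 1 alone gave them 0.090 and -0.12, the opposite signs. Without 1 array the genotype differences ran from -0.011 to 0.066 (*Heph*), -0.062 to 0.033 (*Slc40a1*), -0.024 to 0.065 (*Tfrc*) and -0.071 to 0.0015 (*Trf*), and the batch differences from -0.017 to 0.068 (*Heph*), -0.072 to 0.00022 (*Trf*) and -0.042 to 0.016 (*Fth1*). No member passed for the genotype by batch term under any alternative run.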
